A study of Caenorhabditis elegans with 2 samples.

Results

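The translation initiation and elongation factor genes of Caenorhabditis elegans were taken by name, as every protein-coding gene of the autosomes and the X chromosome called eif-, eef-, ife- or ifg-. This gave 37 genes among the 19973 protein-coding genes annotated there. DNA bound by the nuclear hormone receptor NHR-2, a transcription factor, was measured by ChIP-seq (sequencing of immunoprecipitated chromatin) in whole embryos of mixed stages and both sexes. There was a single group of 2 libraries, biological replicates 1 and 2, all from strain OP99, genotype unc-119(ed3) III; wgIs99, with the insertion targeting nhr-2. In one field of the labels the target is eGFP-nhr-2, in another the antibody is nhr-2, and the labels do not state the promoter that drives the transgene. All cells of the embryos were pooled, so strong occupancy in a few cells and weak occupancy in many cannot be told apart. No group without the transgene was analysed here, and each comparison is therefore between genes of the same genome, with no test between samples.

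Translation initiation brings the ribosome and the initiator tRNA to the start codon of an mRNA. The eIF4 factors bind the capped mRNA, the eIF3 complex and eIF1 act on the small ribosomal subunit, and eIF2 carries the initiator tRNA and is recharged with GTP by eIF2B. During elongation eEF1A delivers each aminoacyl-tRNA, the eEF1B complex recharges eEF1A, and eEF2 moves the ribosome along the mRNA. Early embryos draw on maternal supplies of these proteins before their own transcription takes over.

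The elongation factors eef-1A.2, eef-1A.1 and eef-2 had the strongest NHR-2 regions among these genes, and most initiation factors had a weaker region below the threshold. The authors deposited a list of peaks that passed a threshold on the irreproducible discovery rate (IDR), which compares region ranks between replicates, 1843 of them on the nuclear chromosomes. They also deposited a series list of 30000 candidate regions from both libraries together, whose strongest regions are those peaks, and a list of 30000 for each replicate. Regions were ranked within a list by signal, a score that the authors gave to each region. A gene was called bound when the summit of a thresholded peak lay in its promoter window, taken as 1000 bp before to 200 bp after its 5′ end. Of the 37 genes, 5 were bound (13.5%, 95% exact Clopper-Pearson interval 4.54 to 28.8%), against 4.14% of the 19936 other protein-coding genes. Any candidate region, thresholded or not, was found in the promoter window of 29 genes (78.4%, 61.8 to 90.2%), against 37.9% of the others. A region among the strongest 5000 of the series list was found for 17 genes (45.9%), against 12% of the others. Among genes that had a candidate region, 17.2% of the translation factors and 10.9% of the others were bound. The intervals cover counting over genes only. Sequencing depth is unknown, because the lists hold no read numbers.

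**Figure D1:**
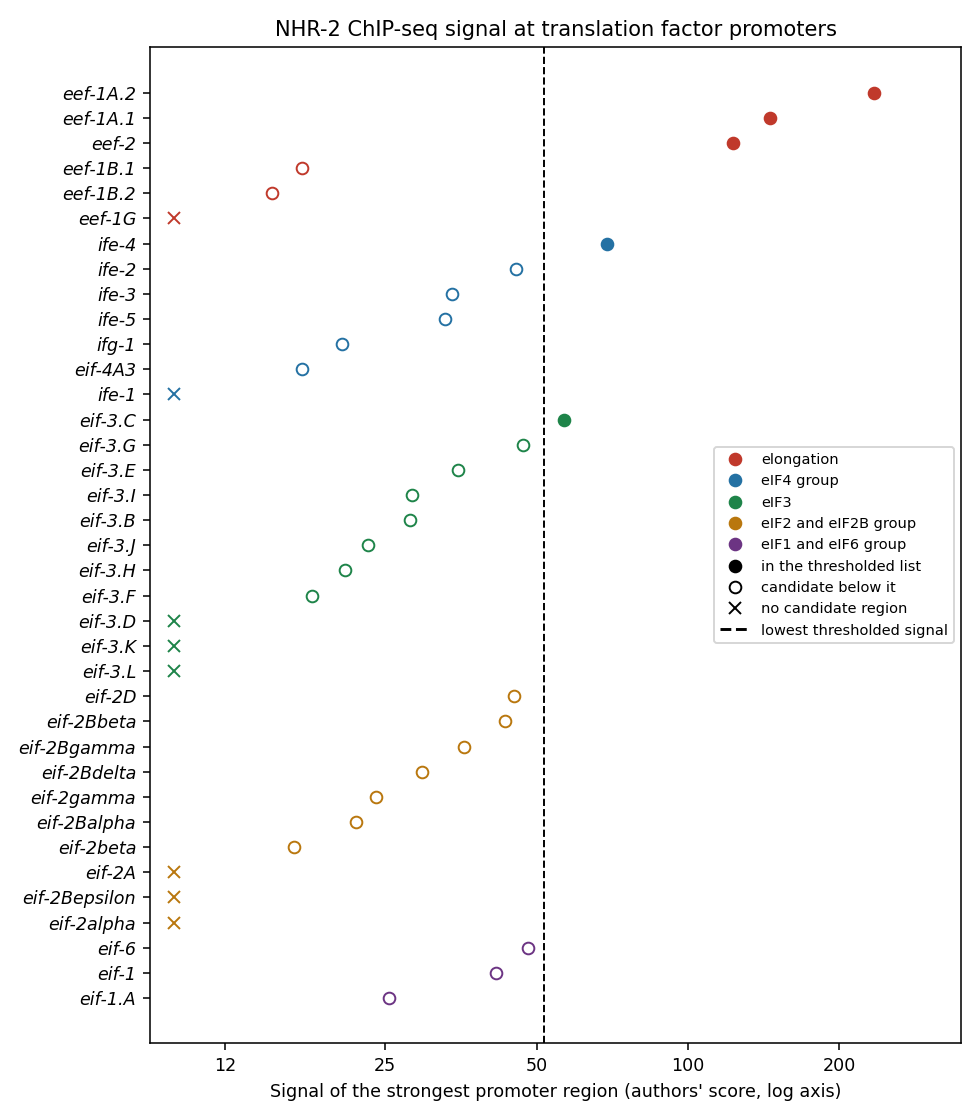
Signal of the strongest promoter region (authors' score, log axis) for each of the 37 genes, grouped by role; filled points are in the thresholded list, open points are candidates below it, and crosses are genes with no candidate region. The 3 elongation factors eef-1A.2, eef-1A.1 and eef-2 lie between 123 and 235, and the dashed line marks the lowest thresholded signal, 51.6.

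The elongation factors divided into 3 genes with strong peaks and 3 without a thresholded peak, while 4.14% of the other protein-coding genes were bound. Both eEF1A genes were bound. The gene eef-1A.2 (WBGene00001169) lies on chromosome X from 7823654 to 7825769 on the plus strand of build ce11. Its promoter summit at 7823280, 374 bp upstream of the 5′ end and inside no annotated gene, had a signal of 235 and ranked 162 in the series list. In replicate 1 the region had a signal of 136 and a rank of 149, and in replicate 2 a signal of 96.5 and a rank of 207. The region was therefore near the top in both libraries, with summits 372 and 374 bp upstream. Signals are scores within a list and are not compared between lists.

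The gene eef-1A.1 (WBGene00001168), whose promoter is widely used to drive transgenes in the soma of worms, lies on chromosome III from 6970026 to 6971712 on the minus strand. Its summit at 6972126, 414 bp upstream, had a signal of 146 and a rank of 394. Replicate 1 gave a signal of 71.8 and a rank of 502, and replicate 2 a signal of 70.9 and a rank of 352. This summit also lay in the window of rfc-4, a subunit of replication factor C transcribed the other way, and it was nearer to the 5′ end of rfc-4 (127 bp). When a summit was counted only for the gene with the nearest 5′ end, eef-1A.1 was no longer bound and 4 translation factors were.

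The sequences within 75 bp of these summits are shown because they hold the strongest promoter regions of the group. Each is 151 bases of ce11, written 5′ to 3′ on the strand of its gene. Capitals mark matches to any of 5 searched words of 6 bases, on either strand. These were AGGTCA (the core of many nuclear receptor sites), the GA repeat GAGAGA, and a set of E-boxes, which are sites of helix-loop-helix factors: CAGGTG first, then the palindrome CAGCTG, and last the palindrome CACGTG. Overlapping matches are shown as a single run of capitals.
eef-1A.2, chrX:7823205-7823355, plus strand: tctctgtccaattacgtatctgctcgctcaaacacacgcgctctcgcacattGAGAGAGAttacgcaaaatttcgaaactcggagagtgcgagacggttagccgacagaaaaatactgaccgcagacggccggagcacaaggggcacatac
eef-1A.1, chrIII:6972051-6972201, minus strand: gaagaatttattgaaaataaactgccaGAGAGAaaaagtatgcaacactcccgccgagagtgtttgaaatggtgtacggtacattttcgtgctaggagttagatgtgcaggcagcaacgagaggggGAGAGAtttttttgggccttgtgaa
Both windows held GAGAGA, and neither held AGGTCA or an E-box. In the window of eef-1A.2 a pair of overlapping matches began 23 and 21 bases before the summit. In that of eef-1A.1 a match began 48 bases before the summit and another 51 bases after it. The longest stretch shared by both windows, on either strand, was 8 bases. GAGAGA lay within 75 bp of 30.0% of all 1843 nuclear thresholded summits, and of 30.7% of the 646 that were the strongest in a promoter window.

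Beyond its promoter, eef-1A.2 had more thresholded peaks nearby. A summit 134 bp past its 3′ end, inside the noncoding RNA gene C54D2.14, had a signal of 155 and a rank of 349. Another, 1244 bp past the 3′ end and in no annotated gene, had a signal of 74.6 and a rank of 1118. For both, eef-1A.2 had the nearest protein-coding 5′ end, at 2249 and 3359 bp. No other gene of the group had thresholded peaks both in its promoter window and elsewhere within 3000 bp of the gene.

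The translocation factor gene eef-2 (WBGene00001167) is on the plus strand of chromosome I (9163531 to 9166952). Its summit lay 26 bp upstream, the closest to a 5′ end among the bound genes, with a signal of 123 and a rank of 527. Replicate 1 gave a signal of 73.9, a rank of 475 and a summit 26 bp upstream. Replicate 2 gave a signal of 44.8, a rank of 804 and a summit 29 bp inside the gene. The summit was shared with clsp-1, the claspin gene, which begins 265 bp upstream on the opposite strand.

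The genes of the eEF1B exchange factor, which reloads eEF1A with GTP, had weak series regions or none. The strongest candidates of eef-1B.1 and eef-1B.2 had signals of 17.1 and 14.8 and ranks of 16086 and 21401. In single libraries the strongest region of each window ranked higher. That of eef-1B.1 ranked 13934 in replicate 1 and 6897 in replicate 2, and that of eef-1B.2 ranked 3616 and 17116. The replicate 1 region of eef-1B.1 lay elsewhere in the window than its series region. For eef-1B.2 it overlapped a second, weaker series region, with a summit at -100 bp and a rank of 25642. The strongest series summit of eef-1B.1 lay inside aco-2, 331 bp from its 5′ end, and that of eef-1B.2 in an exon of fcd-2. The gamma subunit gene eef-1G had no series region in its window. In replicate 1 alone, eef-1G had a region 21 bp upstream with a signal of 58.8 and a rank of 687, while replicate 2 had none there. The nearest series summit was 13927 bp away. Taking as many regions as the thresholded list holds, 1838 of the strongest in replicate 1 were nuclear, and of these 29 (1.58%) overlapped no series region. The region at eef-1G was among them. Why it is missing from the series list was not tested.

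Among the eIF4 group, which holds the cap-binding proteins and their partners, ife-4 was the only bound gene of 7. Of the other protein-coding genes, 4.14% were bound. The group was set by gene name. Genes named otherwise, such as the eIF4H-like drr-2 and the eIF4E-binding ifet-1, both bound, are counted in a related list below. The gene ife-4 (WBGene00002062), 1 of 5 eIF4E genes of the worm, lies on chromosome X from 1104212 to 1106251 on the plus strand. Its summit at 1103947, 265 bp upstream, had a signal of 69.0 and a rank of 1249. Replicate 1 gave a signal of 43.5 and a rank of 1056, but replicate 2 gave a signal of 22.6 and a rank of 3120. In replicate 2 more regions stood above it than the thresholded list holds. Its summit window is shown because it is the strongest promoter region among the initiation factor genes taken by name. It held none of the 5 words.
ife-4, chrX:1103872-1104022, plus strand: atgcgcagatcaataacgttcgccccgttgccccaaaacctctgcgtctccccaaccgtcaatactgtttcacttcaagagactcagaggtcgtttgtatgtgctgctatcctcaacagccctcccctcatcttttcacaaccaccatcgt
The other X-linked eIF4E gene, ife-2, came next with a signal of 45.6 and a rank of 2255, its summit 247 bp upstream. It ranked 1963 in replicate 1 and 5193 in replicate 2. The 3 members on X thus held the ranks 162, 1249 and 2255, and 2 of them were bound, against 6.34% of the 2728 other genes on X.

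The remaining eIF4 genes had lower values. The genes ife-3 and ife-5, whose products act in the germ line, had signals of 34.0 and 32.8 and ranks of 3521 and 3743. The library of replicate 1 placed ife-3 at 10222 and ife-5 at 7630. Both stood higher in replicate 2, at 3299 and 3959. The summit of ife-5 lay at the very edge of its window, 1000 bp upstream, and 99 bp from the 5′ end of Y57A10A.29. The scaffold gene ifg-1, which encodes eIF4G, had a signal of 20.5 and a rank of 10497. Its summit lay in an exon of M110.3, 170 bp from the 5′ end of that gene, and replicate 1 had no region in the window. A thresholded peak of signal 76.2 lay 494 bp past the 3′ end of ifg-1, within dab-1 and 504 bp from its 5′ end. The RNA helicase gene eif-4A3, of the exon junction complex, had a signal of 17.0 and a rank of 16137. Its summit lay in an exon of vps-20, and again replicate 1 had no region in the window. The germ-line eIF4E gene ife-1 had no series region in its window.

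The eIF3 complex, which holds the small ribosomal subunit ready for the mRNA, had a single bound gene of 11, eif-3.C. A candidate region was found for 8. Of the other protein-coding genes, 4.14% were bound and 37.9% had a candidate region. The gene eif-3.C (WBGene00001226) is on the minus strand of chromosome I (9976426 to 9979662). Its summit 276 bp upstream had a signal of 56.6 and a rank of 1633. Replicate 1 gave a signal of 22.7 and a rank of 2621, and replicate 2 a signal of 40.9 and a rank of 936. The summit lay between eif-3.C and the end of sys-1, a β-catenin gene on the same strand that ends 401 bp upstream, and it fell in no other gene's window. The next was eif-3.G, an RNA-binding subunit, with a signal of 47.1 and a rank of 2140, its summit 311 bp upstream. It ranked 2119 in replicate 1 and 7154 in replicate 2. Below it, eif-3.E had a signal of 34.8, eif-3.I 28.3, eif-3.B 28.0, eif-3.J 23.1, eif-3.H 20.8 and eif-3.F 17.9. For eif-3.F the series summit was at -873 bp. Replicate 1 had no region in its window, and that of replicate 2 lay elsewhere, at -418 bp with a rank of 29645. The summit of eif-3.I was 64 bp from the 5′ end of abtm-1. That of eif-3.H lay in an exon of C41D11.3, 13 bp from the 5′ end of that gene. No series region was found for eif-3.D, eif-3.K or eif-3.L. The subunits of this complex therefore ran from a thresholded peak to no region.

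None of the 10 genes of the eIF2 and eIF2B group was bound, and 7 had a candidate region. Among the other protein-coding genes these shares were 4.14% and 37.9%, and 10 genes are too few to set a lack of bound genes apart from 4.14%. The highest was eif-2D, an initiation factor that can place tRNA without eIF2, with a signal of 45.1 and a rank of 2299. Its libraries differed widely, with a rank of 24241 in replicate 1 and 1254 in replicate 2. The subunit genes eif-2Bbeta and eif-2Bgamma had signals of 43.4 and 35.8 and ranks of 2425 and 3245. The summit of eif-2Bbeta was only 46 bp from the 5′ end of Y47H9C.8, and that of eif-2D also lay in the window of ndub-5. In replicates 1 and 2, eif-2Bbeta ranked 3014 and 4926. The signals of eif-2Bdelta and eif-2Balpha were 29.6 and 21.9, and the eif-2Balpha summit was 168 bp from the 5′ end of mut-7. Of the eIF2 trimer, eif-2gamma had a signal of 23.9, eif-2beta 16.4 and eif-2alpha no region. Replicate 1 had no region in the window of eif-2beta. The genes eif-2Bepsilon, the catalytic subunit of eIF2B, and eif-2A had no series region either, though eif-2A had a region ranked 12323 in replicate 2. A thresholded peak of signal 56.3 lay 2520 bp upstream of eif-2D, but it was 161 bp from the 5′ end of C25H3.11.

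The summit window of eif-2Bgamma is shown because it held AGGTCA in a region below the threshold, as its reverse complement from 68 bases after the summit.
eif-2Bgamma, chrII:6968467-6968617, minus strand: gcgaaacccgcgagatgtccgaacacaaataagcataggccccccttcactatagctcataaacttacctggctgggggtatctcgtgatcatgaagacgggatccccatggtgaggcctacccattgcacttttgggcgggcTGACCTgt
The window of eif-2Bgamma was the only one among the 29 with AGGTCA within 75 bp of the summit. It lay 894 bp upstream of the gene, inside sup-39, an annotated small nuclear RNA gene, within C15F1.5. Genes of this RNA class have near-identical copies elsewhere, and how reads from such copies were placed is not given in the sources used here. The match was not within 50 bp of the summit, and a region at this place was found in replicate 1 (rank 2794) but not in replicate 2. A second region of eif-2Bgamma, 34 bp upstream of the 5′ end, had a signal of 30.9 and a rank of 4150, and ranked 6550 in replicate 2.

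The genes of eIF1, eIF1A and eIF6 all had a region and none was bound, against 37.9% and 4.14% of the other protein-coding genes. The gene eif-6, which acts in making and releasing the large ribosomal subunit, had the strongest region below the threshold of the whole group, with a signal of 48.0 and a rank of 2079, 283 bp upstream. It ranked 6800 in replicate 1 and 1145 in replicate 2. That summit was shared with pbs-2, a proteasome subunit gene. A separate thresholded peak of signal 131, 2020 bp upstream of eif-6, was 131 bp from the 5′ end of tba-2, an α-tubulin gene. The start-codon selection factor gene eif-1 had a signal of 41.4 and a rank of 2607, but its summit lay 2 bp from the 5′ end of vps-24. It ranked 2153 in replicate 1 and 4874 in replicate 2. The gene eif-1.A had a signal of 25.5 and a rank of 6256. Replicate 2 had no region in its window, and the region of replicate 1, at -100 bp, ranked 20955.

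The bound genes closest to the lowest thresholded signal, 51.6, were eif-3.C at 56.6 and then ife-4 at 69.0. The closest below it were eif-6 at 48.0 and eif-3.G at 47.1. The 5 bound genes had a median signal of 123, against 72.9 for the other bound genes. Over the 29 genes with a region, the median signal was 32.8 and the median rank 3743 (quartiles 2255 and 9020), against 21.3 and 9560.5 for the other genes with a region. In all, 12 genes had their strongest region between ranks 1862 and 5000 (32.4%, against 7.90% of the others), 8 between 5001 and 15000 (21.6%, against 12.9%) and 4 between 15001 and 30000 (10.8%, against 13.0%). The band from rank 1862 to 5000, below the threshold, was thus the largest class, though the bands differ in width.

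**Figure D2:**
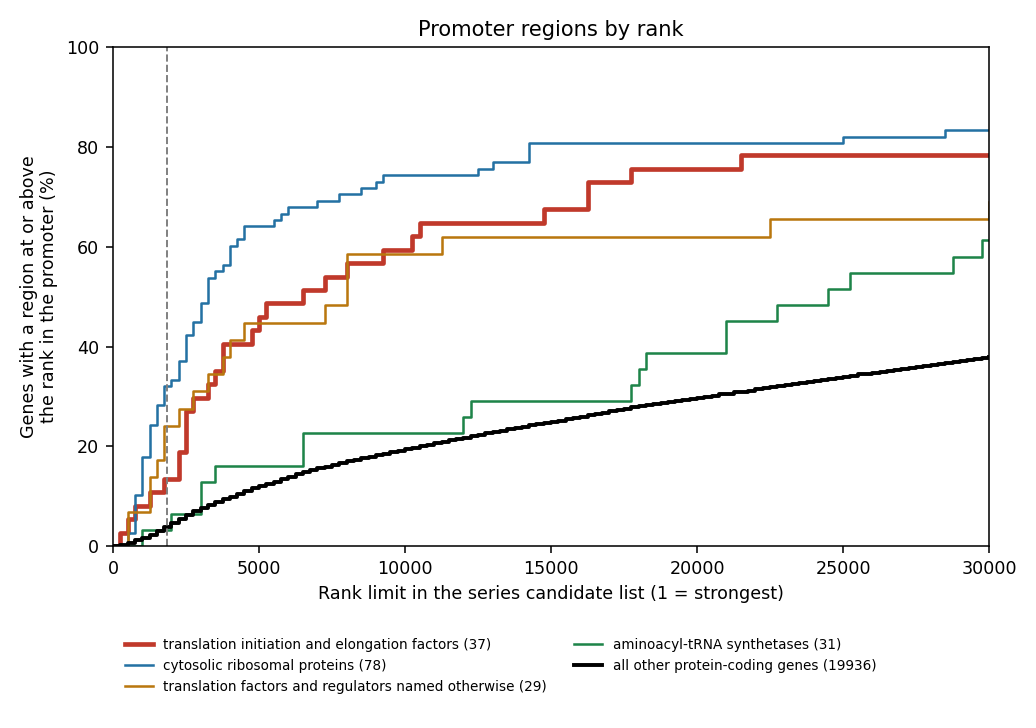
Share of genes (%) whose promoter window holds a series candidate region at or above each rank, for the 37 translation factors, 3 related lists and all 19936 other protein-coding genes; the dashed line marks the last thresholded rank. At rank 5000 the share was 45.9% for the translation factors and 12% for the others.

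The strongest regions lay upstream of the genes. All 29 strongest summits were on the upstream side of the 5′ end, against 87.7% of those of other genes. The window itself reaches 1000 bp upstream and only 200 bp downstream, so a large upstream share is built into it. Their median position from the 5′ end was -374 bp (quartiles -571 and -247 bp), and that of other genes -294 bp. Many annotated 5′ ends of worm genes are sites where a spliced leader is joined, so the start of transcription can lie further upstream. Of the 29 summits, 20 lay in no annotated gene, while 7 lay in an exon of another gene. Of the 29 summits, 14 (48.3%) also lay in the window of another protein-coding gene, against 27.9% of those of the 7550 other genes with a region, and for 19 the translation factor had the nearest 5′ end. Of the 5 bound genes, 2 shared their summit, against 43.3% of the 826 other bound genes. An upstream gene on the same strand ended within 1000 bp of 13 of the 37 genes, and such neighbours can form an operon with a promoter further upstream. An upstream gene on the opposite strand lay that close to 18. The counts by annotated gene, exon, nearest 5′ end and upstream neighbour have no share of other genes beside them.

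**Figure D3:**
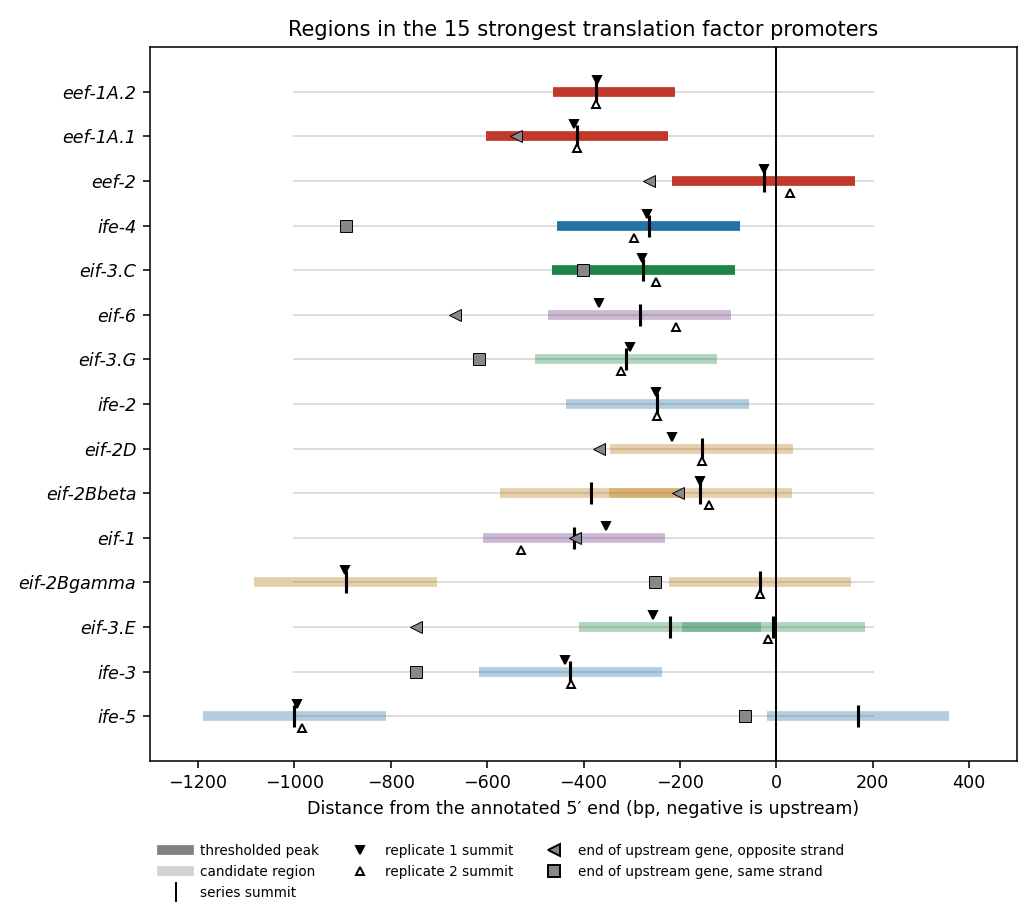
Regions of the series list (bars) in the promoter windows of the 15 translation factors with the strongest regions, with the series and replicate summits and the near end of the upstream gene, by distance from the annotated 5′ end (bp). The series summits of the 5 bound genes lie between 26 and 414 bp upstream.

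The thresholded peaks were the strongest regions of the series list, which pools both libraries. High ranks of the bound genes in the single libraries are therefore no separate result. In replicate 1 a candidate region was found for 28 of the 37 genes (75.7%, against 39.7% of the others), and in replicate 2 for 29 (78.4%, against 38.8%). Both libraries had a region for 24 genes (64.9%, against 24.0%), and neither had one for 4, against 9070 of the 19936 others. A region among the strongest 5000 of both libraries was found for 7 genes (18.9%), against 6.76% of the others. Across the 24 genes the Spearman correlation of the 2 ranks was 0.301, against 0.542 across 4790 other genes, a description in which all points share the same libraries. Each rank is of the strongest region in the window, which can be a different site in each library. At eif-2Bgamma, for example, the summits lay at -895 and -34 bp. The difference between libraries varied from gene to gene, among bound genes too, where ife-4 and eif-3.C moved in opposite directions. Among the widest, chosen after the values were seen, eif-2gamma ranked 2823 in replicate 1 and 24695 in replicate 2, with its summit upstream of the gene in the first and inside the gene in the second. In contrast, eif-3.E ranked 10154 and 1528, while eif-2Bbeta ranked 3014 and 4926. The 2 regions of eif-3.E were different sites, with summits at -256 and -17 bp. Replicate 2 also had a region at -217 bp, which ranked 6754. With an equal number of the strongest regions of replicate 1 alone, 5 genes were bound, against 3.78% of the others, with eef-1G in place of eif-3.C. With those of replicate 2 alone 7 were bound, against 4.52% of the others, eif-2D, eif-3.E and eif-6 being added and ife-4 lost. The genes eef-1A.2, eef-1A.1 and eef-2 were bound in each.

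**Figure D4:**
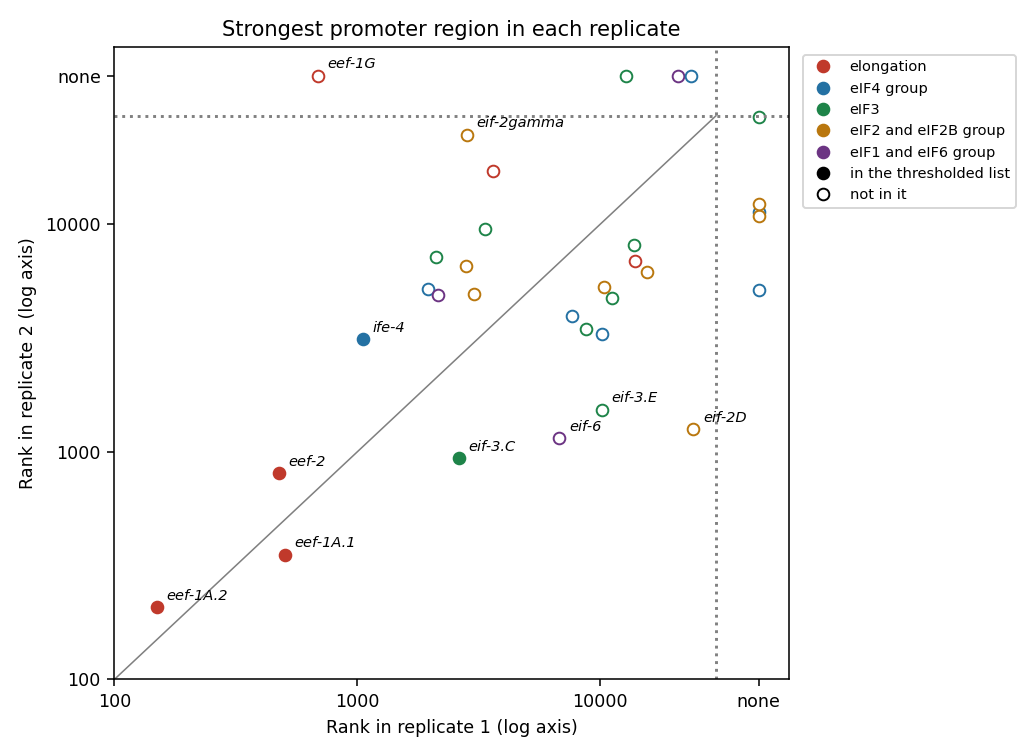
Rank of the strongest promoter region of each gene in replicate 1 and replicate 2 (log axes, 1 is strongest), with genes that have a region in only 1 library along the margins; filled points are in the thresholded series list. The genes eef-1A.2, eef-1A.1 and eef-2 lie near the diagonal at ranks from 149 to 804, and eef-1G has a region in replicate 1 only.

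Few summits held a searched word, in numbers too small to set apart from the background. Of the 5 bound summits, 2 held GAGAGA and none held any of the other words; GAGAGA lay at 30.7% of promoter peaks of any gene. AGGTCA, found within 75 bp of 17.3% of all nuclear thresholded summits and 16.1% of the 646 in promoter windows, lay at 0 of the 5. Of the 24 summits below the threshold, 2 held GAGAGA and 1 held AGGTCA. The same words lay in 11.9% and 4.17% of 5881 regions below the threshold in promoters of any gene. The GC content of the 5 bound windows ran from 42.4 to 51.7% with a median of 43.7%, against 45% for all nuclear summits.

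Related lists were set beside the group, without a test. Of 29 other translation factors and regulators found by name, 7 were bound (24.1%, 10.3 to 43.5%) and 20 had a candidate region. The strongest was iff-2, which encodes eIF5A, with a signal of 158, its summit 67 bp upstream. Next were drr-2, an eIF4H-like factor, with 132, ifet-1, a translational repressor that binds eIF4E, with 76.5, and abcf-2 with 72.9. The summit of ifet-1 was also that of rps-1. Those of iff-2 and drr-2 also lay in the windows of F54C9.14 and set-16, and that of abcf-2 in those of T27E9.2 and ant-1.1. Among genes of cytosolic ribosomal proteins, 25 of 78 were bound (32.1%, 21.9 to 43.6%), with a median rank of 2372 over those with a region. Their highest signals, 145 at rps-20 and 143 at rpl-3, were close to that of eef-1A.1, and below that of eef-1A.2. Aminoacyl-tRNA synthetase genes had 1 bound member of 31, ears-2 with a signal of 93.2 (3.23%), a share near the background, though 19 had a candidate region. The summits of rps-20 and ears-2 also lay in the windows of ekl-4 and uncp-18. These lists differ in size and their intervals overlap that of the translation factors.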

How the data were processed

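ChIP-seq of NHR-2 was analysed in 2 libraries of 1 group. Per texts deposited with the libraries, candidate lists derive from ChIP and control alignments, the series list from both libraries pooled, and the thresholded list from these 3 candidate lists. The signal in the deposited lists is the authors' enrichment score per region. The deposited −log10 q value was at its ceiling for 98.4% of thresholded peaks and was not used. The sources used here do not name the aligner, the peak caller or the IDR threshold.

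Lists on ce11 were used, and no region ran past a WBcel235 chromosome end. Lists on ce10 were not used. Genes came from Ensembl release 115 and sequence from the RefSeq WBcel235 genome. Coordinates are 1-based, and intervals are exact Clopper-Pearson. The strongest region of a gene was that with the highest signal whose summit lay in its promoter window. The window search was checked on planted summits. Python 3.11.15, pandas 2.3.3 and scipy 1.17.1 were used. Of 33 names in the list of other factors, 4 matched no gene. The members, lists, words and alternatives were chosen with earlier results of these data known. Named genes were all bound members, the 10 strongest below the threshold, members with no region and up to 4 bound genes of each related list; other members are named so that each is accounted for. No gene set test was made.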

Additional observations from a re-analysis of the deposited data

How the results depend on the processing

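The number of bound translation factors stayed at 5 with the narrower window (500 bp upstream to 100 bp downstream), the wider window (2000 bp upstream to 500 bp downstream), an overlap of 1 bp in place of the summit, and the 5′ ends of all transcripts, while the share of other genes bound was 3.06%, 5.93%, 4.54% and 4.63%. It was 4 with nearest-gene assignment (others 3.21%), and 5 to 7 with a single replicate (others 3.78% and 4.52%). With the strongest 930 peaks 3 were bound (8.11%, against 1.53% of the others), and without genes on X, an alternative chosen after seeing the data, 3 of 34 (8.82%, against 3.79%). The former setting has fewer peaks, and the latter leaves out 3 members of which 2 were bound. Against other genes that carry a gene name, outside chemoreceptor families, also chosen after seeing the data, the background was 5.74% bound and 44.2% with a candidate region. The number of genes with a candidate region ran from 22 (nearest gene, others 32.5%) to 32 (wider window, others 52.3%). Their median rank was 3405 in the narrower window, 4160.5 in the wider window and 5144 to 5208 in single replicates, where that of other genes was 9865 to 10601; the cause was not tested. Words were found at 2 bound summits within 50 bp and at 3 within the whole peak. With 5 bound genes, each gene moves the share by 2.70 percentage points. Read depth is unknown, and a missing candidate region does not show that a promoter is unoccupied.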
